A study of Mus musculus with 21 samples.

Results

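Glycolysis genes and genes of the hypoxia response were followed in mouse nephron progenitors that were cultured as aggregates or as dispersed cells, with or without the GSK3 inhibitor BIO. They are a list of 36 genes with a textbook role in these pathways, put together with earlier results of these data known, and each gene was read from its brightest probe set, by the mean of the 21 arrays. Of the 36, 33 were among the 18193 genes tested: 4 transport glucose or lactate, 14 are glycolytic enzymes, 4 regulate the flux, and 11 belong to the hypoxia-inducible factor (HIF) system or are other known HIF targets. Gpi1 and Eno1 had no probe set carrying that symbol alone, and Gapdh had only array control probe sets or probe sets naming several genes, so these 3 were not tested.

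The cells were Six2-positive progenitors sorted from embryonic kidneys of Six2GFPcre BAC transgenic mice of mixed background at E16.5, in which regulatory DNA of Six2 drives a GFP and Cre fusion. There were 7 groups of 3 arrays. One group was profiled fresh at 0 h without treatment. Dispersed cells were cultured for 24 h with DMSO or with BIO, and aggregates were cultured for 24 h with DMSO or with BIO. The other two groups were aggregates given BIO for 24 h and then either DMSO or BIO for a further 24 h. All cultures were in DMEM with 10% serum, BIO was used at 4 µM with an equal amount of DMSO as its vehicle control, and each sample held 40000 cells. No group of aggregates kept in DMSO for 48 h was among the labels. Each comparison of a 48 h group with a 24 h group therefore also carries time in culture. The groups with BIO kept and BIO withdrawn were both taken at 48 h. The labels call the arrays biological replicates without saying whether litters, sorts or cultures were separate, so the p-values speak only for the spread among arrays, which may be technical.

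Glycolysis splits glucose into pyruvate in the cytosol and yields ATP without oxygen. Pyruvate either enters the mitochondria through pyruvate dehydrogenase, which the Pdk kinases inhibit, or is reduced to lactate and exported. When oxygen is scarce, the prolyl hydroxylases of the Egln family no longer mark HIF alpha subunits for destruction by Vhl, and HIF dimers bind sites with the core ACGTG or GCGTG and raise glucose transporters, glycolytic enzymes, Pdk1 and angiogenic peptides such as Vegfa. In the embryonic kidney, self-renewing Six2-positive progenitors are known for a high glycolytic rate, and Wnt signalling through beta-catenin, which GSK3 inhibition mimics, starts their differentiation.

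Values are array signals after quantile normalization, differences are on the scale of log2(signal + 1) with their standard errors (SE), and fold changes are between group means on that scale. A gene passed the test when its adjusted p was under 0.05 in a limma fit over all 21 arrays, with Benjamini-Hochberg adjustment over all 18193 genes. Background was a signal of 41.9, below which 95% of the signals of 27 bacterial control probe sets lay. Of the 33 genes, 31 were above background in all 7 groups, Slc16a3, a lactate exporter, in 5, and Car9, a carbonic anhydrase and HIF target, in 2. Pgk1, the first ATP-yielding enzyme of glycolysis, was brighter than 99.2% of genes, and its signals lay between 9361 and 10225 on all 21 arrays. A bright probe set can be near saturation, which was not tested.

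Axin2, a direct target of beta-catenin, was 3.32 ± 0.17 higher with BIO in aggregates (adjusted p = 4.47e-10) and 4.25 ± 0.17 higher in dispersed cells (adjusted p = 3.01e-11). Other properties of the arrays moved with the groups. The summed signal of 8 stromal marker genes had a median of 14480 in DMSO aggregates and 4016 in BIO aggregates, and of 13369 and 3599 in the dispersed cells, and all 8 were above background in these 4 groups. The summed signal of 7 progenitor markers was 27324 in fresh cells and between 7241 and 12156 in the cultured groups, with Cited1, a marker of the uncommitted progenitor, below background in the 6 cultured groups. With BIO, 5 of the 7 were lower and 2 higher in each format, with medians of -1.38 in aggregates and -1.56 in dispersed cells. Of all genes, 12.5% were lower and 17.5% higher in aggregates, and 13.4% and 15.3% in dispersed cells. Six2 itself was lower by -1.38 and -1.62, and the 5 lower markers include Cited1. Eya1 and Sall1 were the 2 higher, each more than 2-fold in both formats. The median summed signal of the 7 was 12038 in DMSO aggregates and 12156 in BIO aggregates. In dispersed cells it was 10938 and 11126. The ratio of the 3′ to the 5′ Gapdh control, a measure of RNA and amplification length, was highest in aggregates at 24 h, at 14.2 ± 0.99 in DMSO and 13.4 ± 1.93 in BIO (SD, n = 3), against 8.14 to 12.1 in the other 5 groups. The 3′ beta-actin control was at 3706 ± 1487 in BIO aggregates and between 8300 and 12330 in the others. The Gapdh and beta-actin controls are given from the deposited signals, before quantile normalization. In bulk RNA, fewer cells of a type and less RNA per cell cannot be told apart, and the part of these markers and controls in the results was not tested except where a value is given.

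The hypoxia response core was searched in RefSeq promoter windows of 300 bases (GRCm38.p6, 250 bases before to 50 after each annotated start). Windows were found for 34 of the 36 listed genes, all but Ndrg1 and Slc2a3. The core, ACGTG or GCGTG on either strand, was in 39 of their 48 windows (81.2%) and in 14380 of all 32851 windows (43.8%), and the median GC content was 62.2% in these windows and 52.7% in all. The core of TCF/LEF sites, CTTTGAA or CTTTGAT on either strand, was in 2 of the 48 (4.17%) and in 8.65% of all windows. The windows of 4 genes that changed with BIO in both formats are shown, chosen because they hold the core, so their matches say nothing of how often it occurs. Slc16a1 and Ldhb rose and Adm and P4ha1 fell, and capitals mark every match of the hypoxia core on either strand.
Slc16a1, chr3:104638414-104638713, plus strand: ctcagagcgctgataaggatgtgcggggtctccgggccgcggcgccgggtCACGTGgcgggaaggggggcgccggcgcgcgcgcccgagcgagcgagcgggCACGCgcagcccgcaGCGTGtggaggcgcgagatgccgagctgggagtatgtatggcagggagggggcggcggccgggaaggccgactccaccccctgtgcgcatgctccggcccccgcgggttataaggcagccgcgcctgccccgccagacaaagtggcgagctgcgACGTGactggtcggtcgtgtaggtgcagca
Ldhb, chr6:142507908-142508207, minus strand: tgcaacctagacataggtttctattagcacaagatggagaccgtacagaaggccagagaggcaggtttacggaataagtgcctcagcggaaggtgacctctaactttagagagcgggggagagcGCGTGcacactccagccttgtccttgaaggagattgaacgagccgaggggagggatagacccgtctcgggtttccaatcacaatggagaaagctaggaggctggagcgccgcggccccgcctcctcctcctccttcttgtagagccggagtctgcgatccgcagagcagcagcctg
Adm, chr7:110627407-110627706, plus strand: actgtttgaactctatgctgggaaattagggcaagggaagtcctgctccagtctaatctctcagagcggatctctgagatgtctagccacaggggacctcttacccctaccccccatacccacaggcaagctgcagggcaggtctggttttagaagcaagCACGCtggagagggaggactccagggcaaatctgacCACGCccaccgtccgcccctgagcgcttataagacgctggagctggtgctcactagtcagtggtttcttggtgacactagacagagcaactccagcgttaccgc
P4ha1, chr10:59323046-59323345, plus strand: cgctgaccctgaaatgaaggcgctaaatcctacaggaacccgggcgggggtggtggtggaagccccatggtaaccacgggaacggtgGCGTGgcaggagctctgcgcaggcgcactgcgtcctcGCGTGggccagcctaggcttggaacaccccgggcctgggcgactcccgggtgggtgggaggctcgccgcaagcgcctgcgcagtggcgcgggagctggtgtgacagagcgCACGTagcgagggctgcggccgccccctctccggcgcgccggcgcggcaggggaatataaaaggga
The window of Slc16a1 held 4 separate stretches, that of P4ha1 3, that of Adm 2 and that of Ldhb 1, and none of these 4 held the TCF/LEF core. Of the other genes changed in both formats, the window of Eno2 held neither core, 1 of the 2 windows of Hk1 held none, and both windows of Aldoc held the hypoxia core. A match describes letters in the window and not binding.

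The first question of the design was whether packing progenitors into aggregates changes their expression relative to dispersed culture. In DMSO, none of the 33 genes passed the limma test between aggregates and dispersed cells, against 2.62% of all genes. At an unadjusted p under 0.05, 7 of 33 passed (18.2% of all genes). The differences ran from -0.65 to 0.67, with a median of 0.014 against 0.111 over all genes. Groups did not overlap for 15 of 33 genes, against 27.6% of all genes. The 95% intervals lay within a 2-fold change for 31 genes and within 0.5 on the log2 scale for 17, and the exceptions to the 2-fold bound were the dim genes Slc16a3 and Car9.

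The smallest adjusted p belonged to Slc2a1, which encodes the basal glucose transporter GLUT1. In DMSO its signals were 2205, 2736 and 2446 in dispersed cells and 3496, 3024 and 3264 in aggregates. Every aggregate lay above every dispersed sample, the difference was 0.41 ± 0.12 (95% interval 0.15 to 0.67), and the adjusted p was 0.083. It passed with array medians centred instead of quantile normalization, as did Ldhb, and with a variance trend and robust prior.
Hif1a, the oxygen-regulated HIF subunit, read 4629, 5020 and 4774 in dispersed cells and 5350, 5641 and 5175 in aggregates. The groups did not overlap, but the difference of 0.16 ± 0.11 did not pass (adjusted p = 0.454). Since HIF1A is controlled mainly through protein stability, its transcript level does not measure its activity.

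With BIO, 2 of 33 genes were higher in aggregates than in dispersed cells and none was lower, against 17.2% of all genes in either direction (12.6% higher, 4.65% lower). Groups did not overlap for 9 of the 33, against 40.3% of all genes. Slc2a1 read 1875, 2074 and 2104 in dispersed cells and 2736, 3027 and 3123 in aggregates, 1.47-fold higher. The difference was 0.55 ± 0.12 (adjusted p = 0.00618), and the groups did not overlap. Ldhb, the lactate dehydrogenase subunit that favours pyruvate formation, read 4488, 4493 and 4646 in dispersed cells and 5848, 5992 and 6404 in aggregates. It was 1.34-fold higher (0.42 ± 0.09, adjusted p = 0.00698), again without overlap. Neither gene passed with the Gapdh 3′ to 5′ ratio or the beta-actin control as a covariate, where no member passed, and the count was 2 higher and 2 lower with the deposited scaling and 4 higher with median centring. Hif1a differed by -0.13 ± 0.11 (adjusted p = 0.462).

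**Figure D1:**
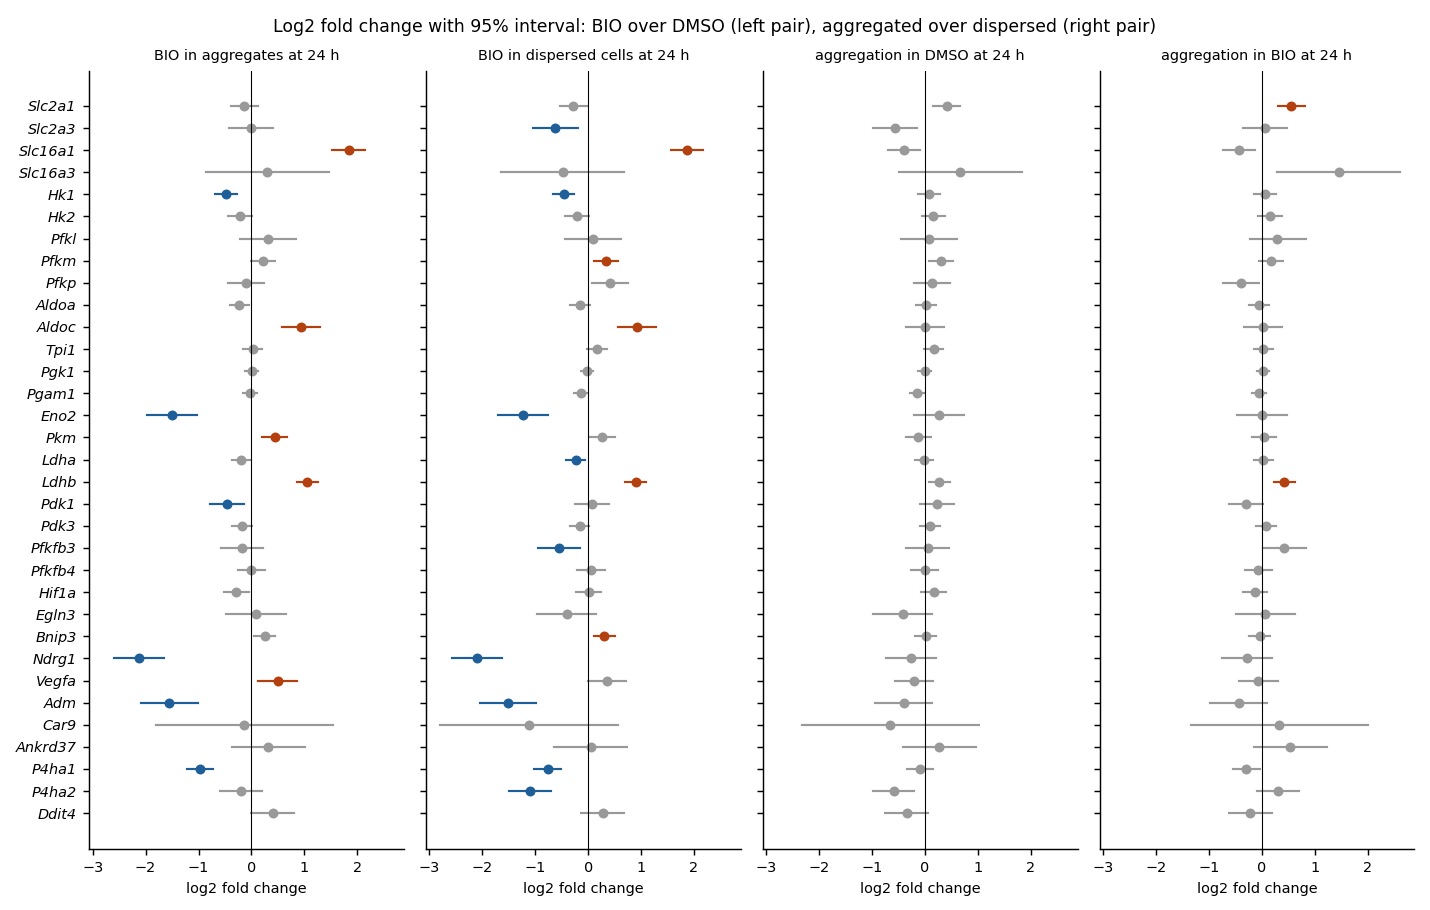
Differences of the 33 genes in the 4 comparisons at 24 h, on the log2 scale with 95% intervals from limma, ordered by role. Red points passed the test as higher, blue points as lower, and grey points did not pass. The BIO comparisons show coloured points on both sides of 0, the aggregation comparisons only Slc2a1 and Ldhb with BIO.

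BIO changed individual genes of the pathway in both directions. In aggregates 5 of 33 genes rose and 6 fell, against 30% of all genes called in either direction (17.5% higher, 12.5% lower). In dispersed cells 5 rose and 9 fell, against 28.7% (15.3% higher, 13.4% lower). The median difference of the 33 genes was -0.03 in aggregates and -0.13 in dispersed cells, against 0.09 and 0.03 over all genes. In this fit the number called was near the background share in aggregates and above it in dispersed cells, where falls were the larger part. The split became 4 and 11 in aggregates and 3 and 11 in dispersed cells with the deposited scaling, and 4 and 9, and 3 and 10, with median centring. The dispersed count was not stable, at 10 to 11 genes without any 1 array. With probe sets averaged it was 9, of which 5 rose and 4 fell, so the larger part of falls was not kept. Of the 33 genes 3 rose and 5 fell in both formats, against 11.1% and 9.26% of all genes: Slc16a1, Ldhb and Aldoc rose in both formats, and Ndrg1, Adm, Eno2, P4ha1 and Hk1 fell in both. The formats used different arrays. No gene called had overlapping groups, and over all 33 genes the groups were apart for 16 in aggregates and 23 in dispersed cells, against 41.4% and 46.8% of all genes.

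Among the transporters, Slc16a1 had the largest rise. It encodes MCT1, which moves lactate and pyruvate with a proton across the plasma membrane. In dispersed cells its signals were 1995, 1917 and 2289 with DMSO and 7230, 7696 and 7663 with BIO, and in aggregates 1192, 1744 and 1836 with DMSO and 6142, 5974 and 4746 with BIO. The 6 BIO samples were all above the 6 DMSO samples. The rise was 1.87 ± 0.15 in dispersed cells (3.65-fold, adjusted p = 5.47e-08) and 1.84 ± 0.15 in aggregates (3.57-fold, adjusted p = 7.86e-08). Slc2a3, a high-affinity glucose transporter, fell by 0.62 on the log2 scale in dispersed cells (adjusted p = 0.0258). Its call was lost without any one of 4 single arrays (adjusted p up to 0.0963) and when its probe sets were averaged.

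Among the enzymes, the isoform genes Ldhb and Aldoc rose and Eno2 fell. Ldhb read 2362, 2438 and 2520 in dispersed DMSO cells and 3295, 2754 and 2776 in DMSO aggregates, below the BIO values given above in each format. It rose by 0.90 ± 0.09 in dispersed cells (1.86-fold, adjusted p = 1.68e-06) and by 1.05 ± 0.09 in aggregates (2.07-fold, adjusted p = 3.21e-07). Ldha, the subunit of the same enzyme that favours lactate and a known HIF target, differed by -0.24 ± 0.08 in dispersed cells (adjusted p = 0.0411) and -0.19 ± 0.08 in aggregates (adjusted p = 0.0946). The dispersed call of Ldha was lost without any one of 5 single arrays, with an adjusted p of up to 0.17. Ldhb was read by a probe set that can cross-hybridise, and its other 3 probe sets rose too.

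Aldoc, an aldolase best known from brain, read 144, 144 and 95.2 in dispersed cells with DMSO and 256, 229 and 228 with BIO. In aggregates it read 153, 123 and 105 with DMSO and 230, 222 and 273 with BIO. It was dim, and in both formats all BIO values lay above the DMSO values. The rise was 0.91 ± 0.17 (adjusted p = 0.000549) in dispersed cells and 0.93 ± 0.17 (adjusted p = 0.000433) in aggregates, and the dispersed call was lost when all probe sets of the gene, one of them below background, were averaged.

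Eno2, the enolase isoform typical of neurons, went the other way. It read 195, 205 and 162 in dispersed cells with DMSO and 94.1, 71.4 and 72.3 with BIO, and in aggregates 229, 215 and 230 with DMSO and 114, 82.7 and 51.3 with BIO. Neither format showed overlap. It fell by 1.24 on the log2 scale in dispersed cells (SE 0.22, adjusted p = 0.000414) and fell by 1.50 in aggregates (SE 0.22, adjusted p = 6.38e-05), 2.36-fold and 2.83-fold. Hk1, a hexokinase that starts glycolysis, fell by 0.47 and 0.48 on the log2 scale (adjusted p = 0.00122 and 0.0009). Pkm, pyruvate kinase, rose by 0.44 in aggregates (adjusted p = 0.00583) and Pfkm, a phosphofructokinase subunit, by 0.34 in dispersed cells (adjusted p = 0.0239), of which the second call was lost without any one of 5 single arrays (adjusted p up to 0.116) and with either other scaling. The aggregate calls of Hk1 and Pkm were lost with the beta-actin control as a covariate, and both calls of Hk1 when its probe sets were averaged. The other enzymes did not pass in either format, Pgk1, Aldoa, Tpi1, Pgam1 and Hk2 among them.

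The flux regulators moved little. Pdk1, which holds pyruvate out of the mitochondria, fell by 0.45 on the log2 scale in aggregates (adjusted p = 0.0313), lost without any one of 4 single arrays (up to 0.133) and at 0.11 when its probe sets were averaged. Pfkfb3, which makes the phosphofructokinase activator fructose 2,6-bisphosphate, fell by 0.55 on the log2 scale in dispersed cells (adjusted p = 0.0367), lost without any one of 5 single arrays (up to 0.152) and with the replicate number as a block.

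The largest falls were among the HIF targets. Ndrg1, a stress gene raised by hypoxia and by differentiation, read 2111, 2126 and 2072 in dispersed cells with DMSO and 417, 513 and 546 with BIO. In aggregates it read 1646, 1730 and 1882 with DMSO and 429, 336 and 450 with BIO. The lowest DMSO value was well above the highest BIO value in both formats. It fell by 2.10 on the log2 scale in dispersed cells (SE 0.22, adjusted p = 1.68e-06) and fell by 2.12 in aggregates (SE 0.22, adjusted p = 1.74e-06), 4.30-fold and 4.35-fold. Ndrg1 was read by a probe set that can cross-hybridise, and both calls were kept when its probe sets were averaged.

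Adm encodes adrenomedullin, a vasodilator peptide. Its signals were 450, 465 and 486 in dispersed DMSO cells and 149, 201 and 143 with BIO, and 289, 382 and 397 in DMSO aggregates and 168, 90.5 and 113 with BIO. BIO samples were lower than DMSO samples in both formats without overlap. The falls were 2.86-fold (-1.52 ± 0.25, adjusted p = 0.000211) and 2.93-fold (-1.55 ± 0.25, adjusted p = 0.000167). Adm was read by a probe set that can cross-hybridise. Its other probe set, below background at a mean signal of 28.1, passed in dispersed cells (-2.84, adjusted p = 0.00512). In aggregates that probe set did not pass (-1.90, adjusted p = 0.0503).

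P4ha1 and P4ha2 encode the catalytic subunits of the prolyl hydroxylases that stabilise collagen. P4ha1 read 1447, 1608 and 1732 in dispersed DMSO cells and 888, 846 and 1082 with BIO, and 1389, 1632 and 1464 in DMSO aggregates and 694, 774 and 826 with BIO. It was lower in every BIO sample, by -0.77 ± 0.12 (adjusted p = 9.25e-05) and -0.97 ± 0.12 (adjusted p = 8.9e-06), and the dispersed call was lost when it was averaged with a dimmer probe set. P4ha2 read 459, 349 and 486 in dispersed DMSO cells against 209, 177 and 214 with BIO, and 222, 286 and 358 in DMSO aggregates against 233, 282 and 230 with BIO. The dispersed groups stood apart, the aggregate groups overlapped. It fell 2.14-fold in dispersed cells (-1.10 ± 0.18, adjusted p = 0.000244) and differed by -0.20 in aggregates. The test of that difference gave 0.90 ± 0.26 with an adjusted p of 0.12, so a dependence on format was not shown. Stromal cells also make collagen, and stromal markers fell in the same samples, 7 of 8 in aggregates and 6 of 8 in dispersed cells. Of all genes, 12.5% and 13.4% were lower. The stromal marker Meis1 was higher in dispersed cells, by 0.42 (adjusted p = 0.00168). The part of the stromal markers in the falls was not tested.

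**Figure D2:**
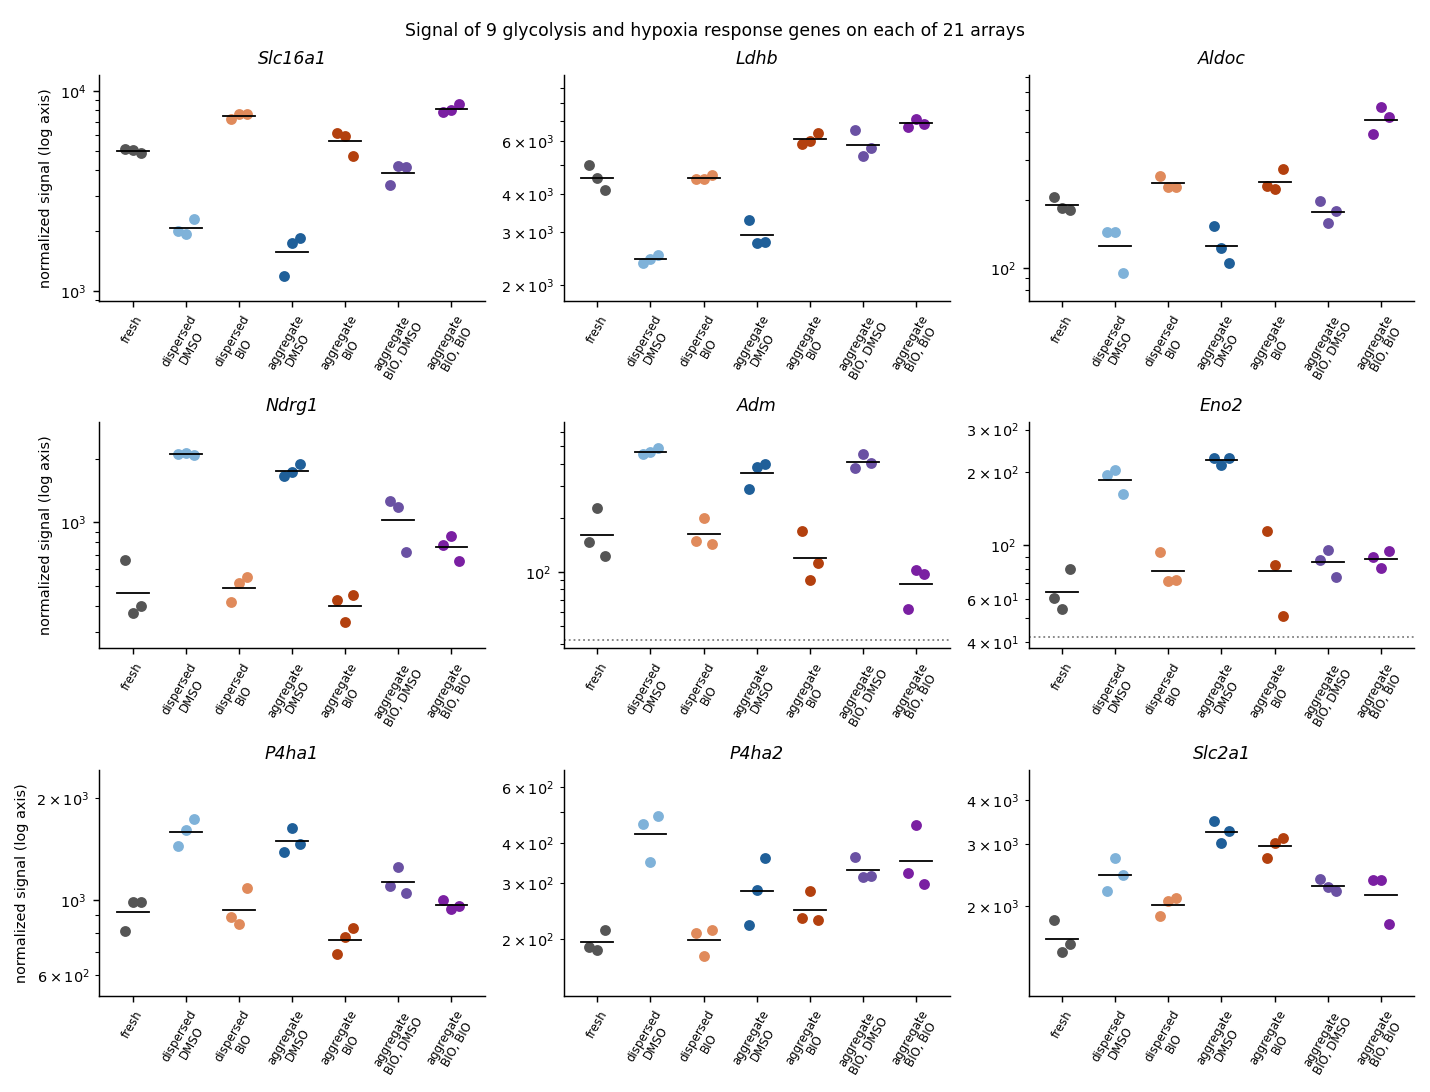
Normalized signal (log axis) of 9 genes in the 7 groups, where each point is 1 array, bars are group means on the log scale and the dotted line is the background of 41.9. Slc16a1 and Ldhb sit higher with BIO in both formats and Ndrg1, Adm, Eno2 and P4ha1 lower, while P4ha2 is lower with BIO in dispersed cells.

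The remaining HIF genes gave no shared direction. Vegfa, the angiogenic growth factor, read 503, 512 and 481 in DMSO aggregates and 654, 737 and 717 with BIO. It rose by 0.49 ± 0.17 without overlap (adjusted p = 0.0404), a call lost without any one of the 6 arrays compared (up to 0.11) and with either other scaling. In dispersed cells its difference of 0.35 ± 0.17 did not pass (adjusted p = 0.151). Bnip3, a mitophagy receptor, rose by 0.30 in dispersed cells (adjusted p = 0.024), lost without any one of 3 single arrays (up to 0.0963) and with either other scaling. Hif1a differed with BIO by 0.01 ± 0.11 in dispersed cells (4894, 5113 and 4491 with BIO, adjusted p = 0.978) and by -0.28 ± 0.11 in aggregates (4957, 4119 and 4233, adjusted p = 0.0621). Its BIO and DMSO values overlapped in dispersed cells and stood apart in aggregates. No member passed the limma test of a different BIO effect in aggregates and dispersed cells, against 1.57% of all genes (0.726% higher, 0.841% lower), and 4 passed at an unadjusted p under 0.05 (12.1% of all genes).

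Of other pathway genes, 28 further glycolysis and pyruvate genes were measured, of which 3 rose and 6 fell with BIO in aggregates and 4 rose and 9 fell in dispersed cells (medians 0.04 and -0.11). Beside these and the following counts stand the shares over all genes, 17.5% higher and 12.5% lower in aggregates and 15.3% higher and 13.4% lower in dispersed cells, with medians of 0.09 and 0.03. Of those past the threshold, Slc16a7 differed most, by -2.53 in aggregates and -3.27 in dispersed cells. Its BIO means of 36.8 and 16.2 lay below background. Pgm2, a phosphopentomutase with phosphoglucomutase activity, differed by -2.36 and -2.30, and Pdk4, a further pyruvate dehydrogenase kinase, by -2.34 and -2.78. Of 39 other HIF targets 5 rose and 13 fell in aggregates and 6 rose and 12 fell in dispersed cells (medians -0.12 and -0.16). Lox, a collagen cross-linking enzyme, differed by -4.18 and -4.42, and Edn1, the vasoconstrictor endothelin, by -2.56 and -2.46. Cxcr4, a chemokine receptor, rose by 5.07 and 4.28. Of 16 HIF subunits and oxygen sensors, 1 rose and 3 fell in aggregates and 6 fell in dispersed cells (medians -0.10 and -0.14). The riser in aggregates was Hif3a, a HIF subunit, by 0.40. Egln1, the main oxygen-sensing hydroxylase, passed only in aggregates, lower by -0.34. Epas1, the HIF2 alpha subunit, passed only in dispersed cells, lower by -0.83. Of 7 pentose phosphate genes 3 rose in aggregates and 1 in dispersed cells (medians 0.25 and 0.04), and Tkt, transketolase, was higher by 0.37 and 0.63.

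Culture was the comparison with the most calls among these genes. Against fresh cells, 11 of 33 genes were higher and 13 lower in DMSO aggregates (32.9% of all genes called, 18.4% higher and 14.5% lower), and 11 were higher and 12 lower in dispersed DMSO cells (33.2%, 15% higher and 18.3% lower). Groups were apart for 26 of the 33 genes in each, against 45.6% of all genes for aggregates and 46.8% for dispersed cells. Both comparisons share the fresh arrays, and culture is joined with time, medium and the loss of progenitor markers, which cannot be told apart. Fresh cells held the highest group mean for 10 of the 33 genes and the lowest for 7. The genes named here were chosen after their values were seen, except those already described.

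Phosphofructokinase, the committed step of glycolysis, has liver, muscle and platelet subunits, and the liver and muscle forms fell while the platelet form rose. Pfkl, the liver subunit, read 1766, 1549 and 1529 in fresh cells, 276, 330 and 413 in dispersed cells and 295, 324 and 455 in aggregates. It fell 4.80-fold in dispersed cells (-2.26 ± 0.25, adjusted p = 2.54e-06) and 4.57-fold in aggregates (-2.19 ± 0.25, adjusted p = 4.33e-06). Its other two probe sets above background fell less, by -0.91 and -0.91 in dispersed cells and -0.73 and -0.87 in aggregates, so the size of the fall depends on the probe set. Pfkp, the platelet subunit, read 187, 114 and 122 in fresh cells, 482, 480 and 522 in dispersed cells and 499, 495 and 635 in aggregates. It rose by 1.84 ± 0.16 (adjusted p = 1.86e-07) and 1.97 ± 0.16 (adjusted p = 9.78e-08). Neither gene's fresh values overlapped with the cultured ones, and Pfkm, the muscle subunit, was lower by -0.78 and -0.47.

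Pdk1 read 3104, 2791 and 2915 in fresh cells, 780, 867 and 813 in dispersed cells and 1015, 869 and 986 in aggregates. No value of the DMSO cultures came near the fresh ones. The fall was 3.58-fold (-1.84 ± 0.15, adjusted p = 8.86e-08) and 3.07-fold (-1.62 ± 0.15, adjusted p = 4.54e-07). Pfkfb3 rose from 168, 133 and 149 to 325, 307 and 336 in dispersed cells and to 278, 358 and 372 in aggregates, by 1.11 ± 0.19 and 1.16 ± 0.19 (adjusted p = 0.000218 and 0.000167).

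Slc16a1 read 5115, 5046 and 4912 in fresh cells, above both DMSO groups and below the dispersed BIO group, and fell with culture by 1.28 and 1.68 on the log2 scale (adjusted p = 3.35e-06 and 1.89e-07). Ldhb read 5004, 4519 and 4127 in fresh cells and fell by 0.89 and 0.63 on the log2 scale (adjusted p = 1.52e-06 and 7.07e-05). Slc2a1 read 1829, 1482 and 1563 in fresh cells and rose by 0.60 and 1.01 (adjusted p = 0.000963 and 7.61e-06). Of the other 2 transporters, Slc2a3 differed by -0.07 in dispersed cells (adjusted p = 0.837) and by -0.63 in aggregates (adjusted p = 0.0211). The aggregate call was lost without any one of 3 single arrays (up to 0.118) and when its probe sets were averaged. Slc16a3 passed in neither format.

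HIF targets also divided. Ndrg1 read 660, 372 and 402 in fresh cells and rose by 2.18 ± 0.22 in dispersed cells and 1.92 ± 0.22 in aggregates (adjusted p = 9.76e-07 and 4.79e-06). Adm read 147, 227 and 123 fresh and rose by 1.54 ± 0.25 and 1.13 ± 0.25 (adjusted p = 0.000151 and 0.00233). Eno2 read 60.7, 54.8 and 80.1 fresh and rose by 1.52 ± 0.22 and 1.79 ± 0.22 (adjusted p = 4.63e-05 and 1.02e-05). For these 3 genes every DMSO culture lay above every fresh sample. The aggregate call of Adm was lost with the Gapdh ratio as a covariate, and its other probe set, below background, did not pass there (adjusted p = 0.0844). P4ha1, at 808, 988 and 984 fresh, rose by 0.79 and 0.69 (adjusted p = 5.98e-05 and 0.000234). Both calls of P4ha1, and the dispersed calls of Slc16a1 and Pfkfb3, were lost when all probe sets of a gene were averaged.

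Bnip3 went down, from 3131, 3267 and 3390 fresh to 1804, 1914 and 1928 dispersed and 2005, 1799 and 1898 aggregated (-0.79 ± 0.10 and -0.78 ± 0.10, adjusted p = 6.39e-06 and 9.25e-06). Ankrd37, a small HIF target with ankyrin repeats, fell from 298, 224 and 298 to 59.8, 136 and 146 in dispersed cells (-1.35 ± 0.32, adjusted p = 0.00388), without overlap. Its fall in aggregates (-1.08 ± 0.32, adjusted p = 0.0173) was lost without any one of 3 single arrays (up to 0.0561). Hif1a read 3153, 3422 and 3614 in fresh cells and rose by 0.50 ± 0.11 in dispersed cells (adjusted p = 0.00183) and by 0.67 ± 0.11 in aggregates (adjusted p = 0.000178). Its groups did not overlap, but neither call held when its probe sets were averaged, and a further probe set with a mean signal of 2346 differed by 0.15 and 0.04 without passing.

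Of 18 genes of the ATF4 and ER stress response, which shares targets such as Ddit4 and Vegfa with HIF, 16 were higher and none lower after culture in each format, with medians of 0.78 in aggregates and 0.74 in dispersed cells against 0.10 and -0.03 over all genes. Atf3, a stress transcription factor, was 3.88 higher in DMSO aggregates than in fresh cells, Chac1, which degrades glutathione, 3.81 higher and Asns, asparagine synthetase, 2.44 higher. Ddit4, an mTOR inhibitor raised by both responses, read 978, 1020 and 1193 in fresh cells and 935, 955 and 967 in DMSO aggregates, and did not pass in either format. Among the 39 other HIF targets 11 were higher and 10 lower in aggregates, and 10 and 10 in dispersed cells (medians 0.06 and 0.07). Beside the counts of both lists, 18.4% of all genes were higher and 14.5% lower in aggregates. In dispersed cells the shares were 15% and 18.3%. Vegfa was lower in aggregates by -0.53 ± 0.17 (adjusted p = 0.0254), a call lost without any one of 4 single arrays (up to 0.0716).

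**Figure D3:**
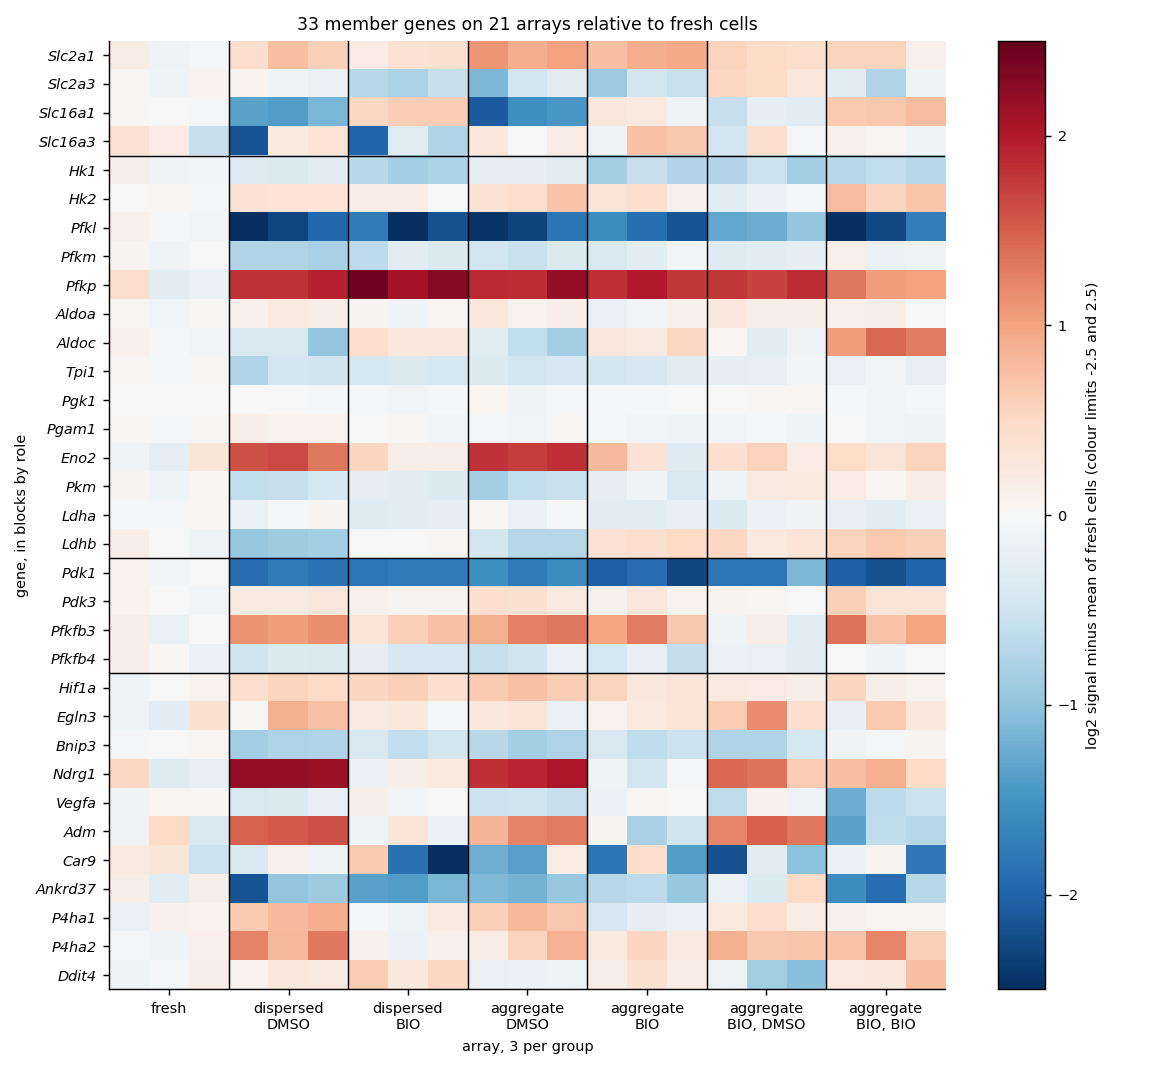
Difference of each of the 33 genes on each of the 21 arrays from the mean of the fresh arrays, on the log2 scale, in blocks by role. Slc16a1, Pfkl and Pdk1 are lower and Pfkp, Ndrg1 and Eno2 higher in the DMSO cultures, and each role block holds both higher and lower genes.

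The second day asked what happens when BIO is kept or withdrawn from aggregates after the first 24 h. With BIO kept, 7 of 33 genes were higher and 7 lower than with BIO withdrawn, against 20.4% of all genes (11.1% higher, 9.29% lower). Groups were apart for 18 of the 33 genes, against 31.9% of all genes. Of the 8 genes that had changed with BIO in both formats on day 1, Slc16a1, Aldoc and Adm differed here in the direction they had on day 1.

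Adm read 376, 454 and 402 after withdrawal and 62.5, 103 and 97.9 with BIO kept, the largest difference of the 33 genes (-2.24 ± 0.25, 4.74-fold lower, adjusted p = 6.12e-06). From 168, 90.5 and 113 on BIO aggregates at 24 h it had risen by 1.77 ± 0.25 over the DMSO day (adjusted p = 8.54e-05), the only member call of that day held under every alternative. The other probe set of Adm, below background, did not pass for BIO kept against withdrawn (-1.85, adjusted p = 0.0773). Nor did it pass over the DMSO day (1.87, adjusted p = 0.0549). Slc16a1 read 3367, 4217 and 4142 after withdrawal and 7875, 7993 and 8612 with BIO kept (1.07 ± 0.15, 2.10-fold, adjusted p = 4.61e-05). Aldoc read 197, 157 and 179 against 391, 514 and 464 (1.35 ± 0.17, 2.55-fold, adjusted p = 1.88e-05). None of these 3 genes had overlapping groups.

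Ndrg1, P4ha1, Eno2, Ldhb and Hk1 did not pass between the 2 groups on day 2. Ndrg1 read 1257, 1178 and 719 after withdrawal and 781, 861 and 654 with BIO kept, and the ranges overlapped. It had risen from day 1 by 1.34 ± 0.22 in DMSO (adjusted p = 0.000324) and by 0.92 ± 0.22 in BIO (adjusted p = 0.00665), comparisons that share the BIO aggregates of day 1. Both calls were lost with the beta-actin control as a covariate, and the BIO call also when the probe sets of Ndrg1 were averaged. Ldhb stayed high, at 6529, 5348 and 5693 after withdrawal and 6675, 7130 and 6848 with BIO kept. Eno2 stayed low in both, at 87, 95.9 and 74.3 and at 89.2, 81 and 95.

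Several genes that had not passed for BIO in aggregates on day 1 differed on day 2. Pfkfb3 read 138, 169 and 122 after withdrawal and 383, 247 and 296 with BIO kept (1.10 ± 0.19, adjusted p = 0.000432), and Hk2, the inducible hexokinase, read 1296, 1434 and 1539 against 2726, 2297 and 2564 (0.83 ± 0.10, adjusted p = 2.14e-05). Both groups were apart for each gene. Bnip3 was higher by 0.62 ± 0.10 (adjusted p = 0.000154) and Ddit4 by 1.09 ± 0.19 (adjusted p = 0.000523), while Pfkl was lower by -1.04 ± 0.25 (adjusted p = 0.00651), Ankrd37 by -1.38 ± 0.32 (adjusted p = 0.00562) and Slc2a3 by -0.81 ± 0.20 (adjusted p = 0.00736). The other two probe sets of Pfkl did not pass (-0.16 and 0.27). Calls of Ddit4, Pfkl, Ankrd37 and Slc2a3 were lost when only the 6 arrays compared were fitted. Those of Pfkl and Slc2a3 were also lost when all probe sets of a gene were averaged. The calls of Pdk1 (-0.49, adjusted p = 0.0292) and Vegfa (-0.59, adjusted p = 0.0227) were each lost without any one of 3 single arrays (up to 0.12). Unlike the genes above, Pdk1 and Vegfa had also passed for BIO in aggregates on day 1. Pdk1 had the same direction there (-0.455), while Vegfa had been higher with BIO (0.49). The stromal marker sum was 10765 after withdrawal and 2345 with BIO kept, and its part in these differences was not tested.

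**Figure D4:**
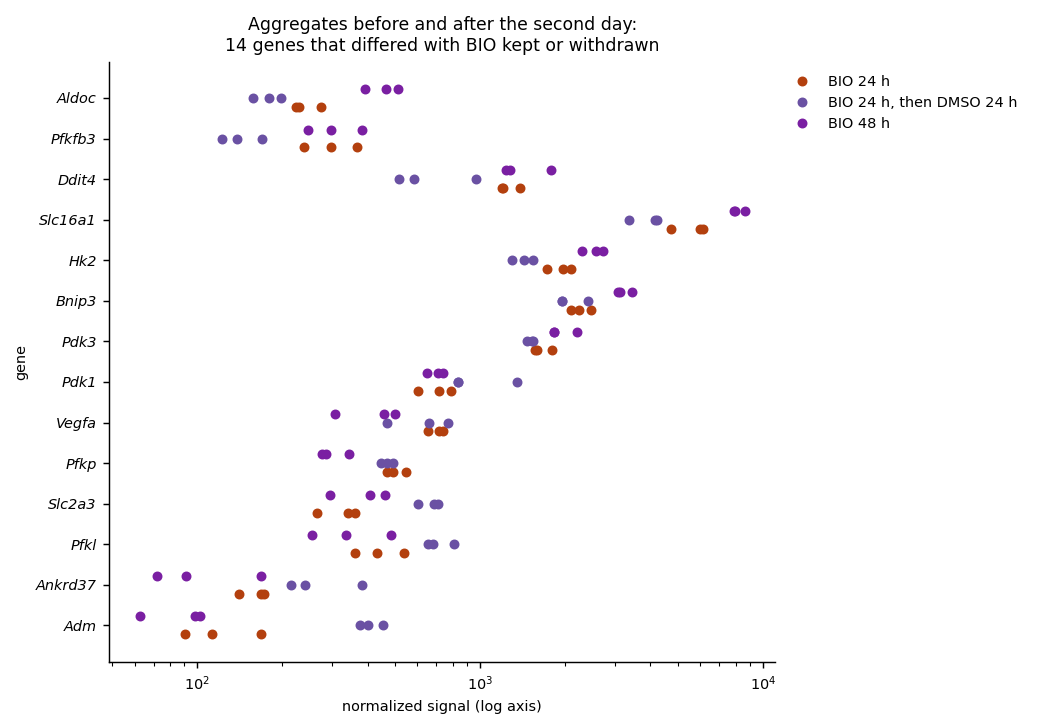
Normalized signal (log axis) of the 14 genes called between BIO kept and BIO withdrawn, in aggregates on day 1 with BIO and on day 2 with BIO withdrawn or kept. Each point is 1 array. Adm sits at 62.5 to 103 with BIO kept and at 376 to 454 after withdrawal.

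Against the BIO aggregates of day 1, 6 of 33 genes rose and 5 fell over the DMSO day (24.9% of all genes, 8.66% higher and 16.2% lower), and 8 rose and 3 fell over the second day of BIO (20.8%, 8.05% higher and 12.8% lower). The count for BIO was 7 without the first of the BIO-kept arrays, and 3 when only the 6 arrays compared were fitted. With the beta-actin control as a covariate the counts were 2 and 3. Splits moved to 11 and 4 for DMSO and 11 and 3 for BIO with the deposited scaling, and to 4 and 6, and 5 and 3, with median centring. Slc2a3 rose by 1.06 ± 0.20 over the DMSO day (adjusted p = 0.000938), Pfkfb3 fell by 1.06 on the log2 scale (adjusted p = 0.000646) and Ddit4 fell by 0.93 (adjusted p = 0.0021), and these 3 calls were lost with the beta-actin covariate. The call of Slc2a3 was also lost when its probe sets were averaged.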

How the data were processed

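Expression was measured on 21 arrays, 3 in each of 7 groups taken from the labels. The authors deposited linear signal intensity for 45101 probe sets, between 0.1 and 18025. Which software and scaling made the deposited intensity is not given in the sources used here. RNA was amplified in 2 rounds and labelled with biotin, per the labels' protocols.

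Values were quantile normalized as log2(value + 1). Of the probe sets, 34945 had 1 gene symbol (34741 named through RefSeq, 204 kept as annotated), 932 had several, 9160 had none and 64 were controls. One probe set stood for each gene, the brightest by its mean on the 21 arrays, and 18193 genes were tested. Probe sets that can cross-hybridise were the ones chosen for Aldoa, Pgk1, Ldhb, Ndrg1 and Adm. Linear intensity needed log2 transformation and quantile normalization before limma.

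The comparisons used limma (version 3.58.1, R version 4.3.3), fitting 1 mean for each group to the 21 arrays with 14 residual degrees of freedom and a prior of 1.625, and Benjamini-Hochberg adjustment over all genes of a comparison at 0.05. With 3 arrays per group, their number limits the precision. The procedure was tested on simulated data of BIO in aggregates, where 24% of genes planted with a change of 0.5, 90% with 1 and 100% with 2 on the log2 scale were recovered among 18193 genes.

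The members and gene lists were chosen with earlier results of these data known. Full statistics are given for members past 0.05 with groups that do not overlap in the BIO and aggregation comparisons at 24 h, at most 6 per comparison by size, and for Hif1a. Other lists give at most 4 genes past the threshold, which are not the largest in every list and comparison. Alternatives were the deposited scaling, median centring, a pseudocount of 16, a filter on dim genes, the mean of all probe sets, a variance trend with robust prior, control probe sets as covariates, a replicate block, only the arrays compared, and leaving out each array. Whether replicate numbers pair the samples is not known. Over 63 same-numbered pairs the deviations correlated at -0.04 on average, between -0.389 and 0.264, and 10 pairs were over 0.1. An average over all pairs cannot show whether some groups were paired. Plots come from matplotlib 3.10.9 (Python 3.11.15).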

Additional observations from a re-analysis of the deposited data

How the results depend on the processing

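Of 110 member results past the threshold over 10 comparisons, 110 kept direction and call with a pseudocount of 16, with a filter on dim genes and with a variance trend and robust prior, 103 with the deposited scaling, 96 with median centring, 83 with either control covariate, and 77 with the mean of probe sets or with only the arrays compared. With the replicate number as a block 109 kept it, and Pfkfb3 for BIO in dispersed cells did not; the counts were 11 for BIO in aggregates and 13 in dispersed cells. Without 1 array, calls ranged from 9 to 11 for BIO in aggregates, 10 to 11 in dispersed cells, 0 to 0 for aggregation in DMSO, 2 to 2 in BIO, 12 to 15 for BIO kept against withdrawn, 20 to 22 and 21 to 22 for DMSO aggregates and dispersed cells against fresh cells, 7 to 11 for the second day of BIO and 8 to 10 for the DMSO day. Averaging probe sets gave 9 calls for BIO in dispersed cells, 9 for BIO kept against withdrawn and 7 for the second day, and turned Pdk1 for BIO in aggregates to 0.11, Pfkp for BIO kept against withdrawn to 0.32, and Aldoc against fresh cells to 0.08 in aggregates and 0.12 in dispersed cells. Aldoc has another probe set below background, and otherwise the cause was not tested. The beta-actin covariate gave 7 calls for BIO in aggregates, 0 for aggregation in BIO, 3 for the second day and 2 for the DMSO day, where Slc16a1 turned to 0.069. The Gapdh ratio gave 0 for aggregation in BIO and 3 for the second day. Only the arrays compared, which leaves fewer arrays for the spread, gave 7 for BIO kept against withdrawn, 3 for the second day and 5 for the DMSO day. Median centring gave 2 for aggregation in DMSO and 4 in BIO, the variance trend 1 in DMSO, and the deposited scaling 4 in BIO. Car9 and Slc16a3 lay near background, which limits what their signals can show.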

Other observations

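Gapdh was not among the genes tested and was followed by its 3′ array control probe set. Its deposited signal, before quantile normalization, was 8502 ± 143 in fresh cells. It was 8342 ± 255 and 8313 ± 433 in dispersed and aggregated DMSO cells, and 9328 ± 156 and 9305 ± 664 in dispersed and aggregated BIO cells (SD, n = 3). On day 2 it was 9273 ± 72.2 with BIO withdrawn and 9360 ± 389 with BIO kept. These values were not tested.

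Among glycolysis genes outside the 33, format differed with BIO for 5 of 28, of which 4 were higher in aggregates and 1 lower, close to the 17.2% of all genes called. Slc2a4, the insulin-responsive glucose transporter, was 1.26 ± 0.14 higher (adjusted p = 3.7e-05), Slc2a8, an intracellular glucose transporter, 0.96 ± 0.14 higher (adjusted p = 0.000385) and Pcx, pyruvate carboxylase, 1.05 ± 0.22 higher (adjusted p = 0.00472). Pdp2, a pyruvate dehydrogenase phosphatase, was lower by -1.24 ± 0.15 (adjusted p = 7.44e-05). In DMSO, 1 of the 28 passed, against 2.62% of all genes. It was the muscle enolase gene Eno3, 0.49 ± 0.11 higher in aggregates (adjusted p = 0.0343). Whether the calls of these genes outside the 33 hold with the control covariates or the other alternatives was not tested.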
